A study of Mus musculus with 188 samples.

Results

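Mouse brain slice cultures exposed to 200 μM of free hemoglobin (Hb) for 48 h were compared with untreated cultures of the same duration. The members are the libraries whose treatment label reads Hb at 200 μM and 48 h, of which there are 10, and those labelled control at 0 μM and 48 h, of which there are 9. Together they make up 19 of the 188 libraries of the series, all from sequencing batches 2 and 3. The series measured bulk mRNA in organotypic slices exposed to heme-albumin, free Hb or their complexes with the scavenger proteins hemopexin and haptoglobin. Its purpose was to follow the transcriptional response of brain tissue to toxins released from red blood cells after intracranial bleeding.

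All slices of both groups came from C57BL/6J mice, male and female, 6 to 8 weeks of age, and were coronal sections of 150 μm kept as 2 slices per insert. They were cultured first with horse serum and then in serum-free medium, and exposure began on culture day 7. The Hb was human, stroma-free and purified from expired blood units, and it was added without haptoglobin. The controls received no Hb, and no other protein took its place in them. Slices of adult brain cultured without blood flow keep resident cells only, and the protein was of another species than the tissue. Whether separate libraries stand for separate animals is not stated, so the p-values measure the spread between these libraries. The library names carry a code, E1 or E2, called experiment here, and a letter with a number such as F5 or M1. The controls comprise 7 libraries of E1 and 2 of E2, and the Hb group comprises 7 of E1 and 3 of E2. A further E2 control carries conflicting labels, 24 h in its title and treatment and 48 h in its library name, and was left out, so that E2 has 2 controls here.

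Free Hb that leaves red blood cells breaks down and releases heme, an iron porphyrin that promotes oxidation of lipids and proteins. Cells degrade heme with heme oxygenase, store the freed iron in ferritin and export it through ferroportin, while the transferrin receptor that imports iron is lowered when cellular iron is high. The transcription factor NRF2, held back at rest by KEAP1, switches on genes of glutathione, thioredoxin and NADPH metabolism through antioxidant response elements, and BACH1 releases several of the same genes when it binds heme.

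The control libraries held 2.65e+07 to 4.75e+07 counts each (median 4.62e+07) and the Hb libraries 2.53e+07 to 5.08e+07 (median 4.63e+07). The sex letter in the library name matched the Y-linked genes in 19 of 19 libraries, and no pair of libraries within a group and batch agreed within sampling noise over 51 pairs. Libraries of E2 stood apart from those of E1. With a term for the experiment, 9984 of 16221 genes (61.5%) differed between E2 and E1, irrespective of treatment. Counts and gene groups are therefore given with and without that term. Mouse globin genes had at most 1 count in any of the 19 libraries for each of Hba-a1, Hba-a2, Hbb-bs and Hbb-bt.

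Free Hb changed few genes after 48 h, and nearly all of them rose. Among 16221 genes tested with edgeR's quasi-likelihood test, with sequencing batch as a term, 37 passed an adjusted p of 0.05 (0.228%). The spread was estimated over 55 libraries, those of Hb with haptoglobin and those of 24 h included, and with the 19 libraries alone 20 genes passed, 16 of them among the 37. Of the 37, 33 were higher with Hb (0.203%) and 4 were lower (0.0247%). The raised genes included enzymes of glutathione, thioredoxin and NADPH metabolism, detoxifying enzymes, aryl hydrocarbon receptor targets, genes of iron storage and export, and single immune and growth factor genes. By size, 18 of the 37 changed by at least 1.5-fold, 16 upward and 2 downward. The sign of every one of the 37 was the same within E1 and within E2, against 48.8% of all genes, which the choice of these genes on the same libraries favors.

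With the experiment term the count was 73 (0.45%), with 66 higher (0.407%) and 7 lower (0.0432%), and it included all of the 37. With libraries of the same name code compared within 7 pairs it was 83 of 15629 genes (0.531%), with 70 higher (0.448%) and 13 lower (0.0832%), and 30 of the 37 were among them. Within E1 alone 20 genes passed, and 16 of them were among the 37. Each of the 33 raised genes was higher in all 7 pairs and each of the 4 lowered genes was lower in all 7. Over all genes these shares were 2.54% and 1.26%, and the genes were called on these same libraries, so that the contrast is a description only. Leaving out 1 library at a time, 25 of the 37 passed in all 19 fits. The other 12 were Osgin1, Ereg, Map2k3, Sod3, Lrrfip2, Hgsnat, Gsap, As3mt, Slc36a2, Ephx1, Gsr and Txnrd1, whose largest adjusted p across these fits ran from 0.0513 for Osgin1 to 0.176 for Lrrfip2. The count of calls ran from 26 without Hb replicate 4 to 48 without control replicate 4. In the plot of the 37 genes, Il19, Cyp1a1, Adh7 and Slc36a2, genes with few counts, have wide error bars.

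**Figure D1:**
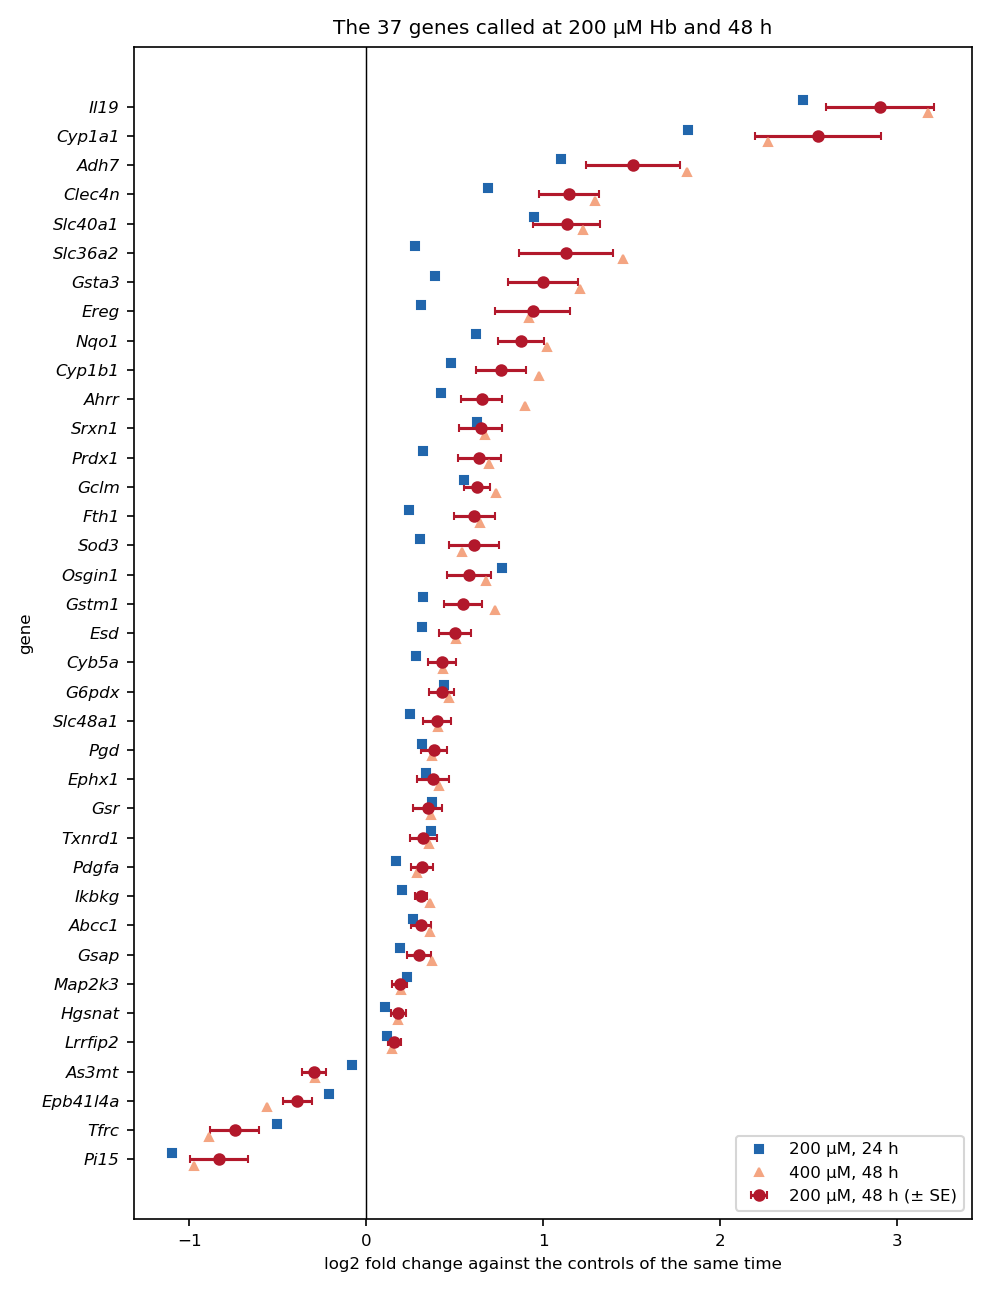
Log2 fold change of the 37 genes that passed at 200 μM and 48 h (circles, with the standard error), beside the values at 24 h (squares) and at 400 μM and 48 h (triangles), each against controls of the same time. The values at 48 h run from -0.83 for Pi15 to 2.90 for Il19, and every gene has the same sign in all 3 comparisons.

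Of the genes of glutathione synthesis and use, Gclm and Gsr passed. Gclm encodes the modifier subunit of glutamate-cysteine ligase, the enzyme that limits glutathione synthesis. Its level ran from 83.3 to 140.2 CPM (counts scaled by library size) in the controls (median 117) and from 147 to 225 CPM with Hb (median 171). The groups did not overlap, and the library nearest to the controls was still above all of them. The log2 fold change was 0.62 (SE 0.075, adjusted p = 2.14e-07, edgeR), and the rise between paired libraries ranged from 0.49 to 0.90 on the log2 scale. Groups without overlap were found for 10 of all 16221 genes (0.0616%), 9 of them with Hb higher (0.0555%) and 1 lower (0.00616%), and 6 of the 37 called genes are among the 10.

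Gclc, the catalytic subunit of the same enzyme, gave a log2 fold change of 0.30 (adjusted p = 0.487) and passed with the experiment term (0.33, adjusted p = 0.0190). Slc7a11, the cystine importer that supplies the precursor, ranged from 36.4 to 267 CPM in the controls and from 86.01 to 317 CPM with Hb. Its groups overlapped over much of this range, and the E2 libraries lay below nearly all of E1. E2 controls were at 36.4 to 42.8 CPM and E2 Hb libraries at 86.01 to 135 CPM, while E1 controls were at 111 to 267 CPM and E1 Hb libraries at 250.3 to 317 CPM. Over all libraries its log2 fold change was 0.76 (adjusted p = 0.399). It was 0.84 with the experiment term (adjusted p = 0.0190), and the adjusted p was 0.0417 in the paired comparison. Gsr, glutathione reductase, rose from a median of 91.8 to 116 CPM (log2 fold change 0.35, SE 0.082, adjusted p = 0.0388). Of the 18 genes on the list of glutathione synthesis and use, 2 rose, none fell and 15 had a positive value, with a median of 0.17, and 5 rose with the experiment term. Over all genes the median was -0.0073, and 7576 of 16221 were positive.

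Among genes of peroxide reduction, Srxn1, Prdx1 and Txnrd1 rose. Srxn1, the sulfiredoxin that restores overoxidized peroxiredoxins, ran from 94.5 to 162 CPM in the controls (median 118) and from 152 to 256 CPM with Hb (median 191). Of the Hb libraries, 8 of 10 lay above the highest control. This is a log2 fold change of 0.65 (SE 0.12, adjusted p = 0.00218). Prdx1, an abundant peroxiredoxin, had a median of 535 CPM in the controls and 901 CPM with Hb, a log2 fold change of 0.64 (SE 0.12, adjusted p = 0.00239). Txnrd1, cytosolic thioredoxin reductase, rose by 0.32 (SE 0.077, adjusted p = 0.0444), and 3 of 10 Hb libraries were above all controls. These 3 genes were the ones called among 18 thioredoxin and peroxiredoxin genes, whose median was 0.040. Sod3, the secreted superoxide dismutase, rose by 0.61 (SE 0.14, adjusted p = 0.0347), with 4 of 10 Hb libraries above the controls.

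The oxidative branch of the pentose phosphate pathway, which makes NADPH, was higher at both of its dehydrogenases. G6pdx, its first enzyme, ran from 134 to 200.0 CPM in the controls (median 159) and from 172 to 265 CPM with Hb (median 216). Of the Hb libraries, only the lowest reached into the control range. The change was 0.43 on the log2 scale (SE 0.072, adjusted p = 0.000584). G6pdx shares exon sequence with Ikbkg on the opposite strand, a limit given with that gene below. Pgd, the next dehydrogenase, rose by 0.39 (SE 0.073, adjusted p = 0.00239). Tkt and Me1, a transketolase and the cytosolic malic enzyme, had values of 0.25 and 0.26 and passed with the experiment term (adjusted p = 0.0134 and 0.00325). Of 11 genes of NADPH production, 2 rose and none fell, with a median of 0.25. Both the experiment term and the paired comparison raised this count to 4, the latter with Me1 and Taldo1, a transaldolase.

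Further called genes with roles in detoxification are described together, a grouping made after the calls. Nqo1, the quinone reductase often read as a marker of NRF2, ran from 7.24 to 13.9 CPM in the controls and from 12.7 to 26.9 CPM with Hb, and 9 of 10 Hb libraries were above every control. Within E1 its log2 fold change was 0.84 (SE 0.13) and within E2 it was 1.18 (SE 0.24). Abcc1, which exports glutathione conjugates, did not overlap between groups, with 63.02 to 74.2 CPM in the controls and 76.7 to 91.4 CPM with Hb. The change was small, a log2 fold change of 0.31 (SE 0.056, adjusted p = 0.00149).

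Among glutathione S-transferases, Gstm1 was higher in 9 of 10 Hb libraries than in any control, from a median of 212 to 295 CPM. Gsta3, at low level, rose from a median of 1.27 to 3.23 CPM (log2 fold change 0.997, SE 0.20, adjusted p = 0.00427). Both belong to families of similar genes, among which reads can be split. They were the 2 called among 19 transferases tested, of which 18 had a positive value and whose median was 0.13. Ephx1, microsomal epoxide hydrolase, rose by 0.38 (adjusted p = 0.0388), Cyb5a, cytochrome b5, by 0.43 (adjusted p = 0.00138) and Esd, an S-formylglutathione hydrolase, by 0.50 (adjusted p = 0.00121). Adh7, an alcohol and retinol dehydrogenase, was scarce, at 0.118 to 0.719 CPM in the controls and 0.540 to 1.56 CPM with Hb, and rose by 1.51 (SE 0.27, adjusted p = 0.00121). Osgin1, a gene induced by oxidative stress, rose by 0.58 (SE 0.13, adjusted p = 0.0167), and lost the call without Hb replicate 5 or control replicate 7.

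On the list of 34 NRF2 targets, 33 were tested, 14 rose and none fell. All 33 had a positive log2 fold change, with a median of 0.39 and a range from 0.0013 to 0.997. With the experiment term 24 passed, and in the paired comparison 21. Gstm3 was not tested because of its low counts, with a median of 3 counts in the controls and 5.5 with Hb. Of 9 genes that regulate NRF2, Nfe2l2, Keap1 and Bach1 among them, none passed in edgeR, which at 0.228% over all genes is no result about so short a list. Their median was 0.11, and Mafg, a small MAF partner, came nearest with 0.21 (adjusted p = 0.197).

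Further members of the list passed once the experiment term was added, and some of them are given here. Akr1b8, an aldo-keto reductase, ran from 11.4 to 32.3 CPM in the controls and from 22.4 to 37.4 CPM with Hb, and 4 of 10 Hb libraries were above all controls. Its value was 0.56 without the term (adjusted p = 0.0776, edgeR) and 0.53 with it (adjusted p = 0.0161). Cbr3, a carbonyl reductase, gave 0.35 with the term (adjusted p = 0.0272) and Aox1, an aldehyde oxidase, gave 0.57 (adjusted p = 0.00731). Sqstm1, the autophagy receptor p62, which binds KEAP1, gave 0.29 (adjusted p = 0.0481), from a median of 365 CPM in the controls and 495 CPM with Hb. Without the term none of these 4 passed.

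Promoter windows of the raised genes were read for the core of the antioxidant response element, since 14 of the 33 are on the list of NRF2 targets. The windows hold 250 bases before and 50 bases after the annotated start, on GRCm38.p6, and come from RefSeq. The core was searched as TGACNNNGC on both strands. Of 32851 windows of 300 bases, 4071 (12.4%) held it, and by gene the share was 13.99%. The table had windows for 23 of the 33 raised genes, and 9 of the 23 (39.1%) held the core. By window, 9 of the 33 windows of these 23 genes (27.3%) held it. Txnrd1 has further windows without the core, and no window of Nqo1, Gstm1, Fth1 or Osgin1, among others, held it. A match is a description of the letters and not a measured binding site. The windows of 6 of the raised enzymes are shown, with the core in capitals. Gclm lies at chr3:122245307-122245606 (plus strand), Srxn1 at chr2:152105274-152105573 (plus strand), Prdx1 at chr4:116685349-116685648 (plus strand), Txnrd1 at chr10:82858956-82859255 (plus strand), G6pdx at chrX:74428831-74429130 (minus strand) and Gsta3 at chr1:21240335-21240634 (plus strand).
Gclm: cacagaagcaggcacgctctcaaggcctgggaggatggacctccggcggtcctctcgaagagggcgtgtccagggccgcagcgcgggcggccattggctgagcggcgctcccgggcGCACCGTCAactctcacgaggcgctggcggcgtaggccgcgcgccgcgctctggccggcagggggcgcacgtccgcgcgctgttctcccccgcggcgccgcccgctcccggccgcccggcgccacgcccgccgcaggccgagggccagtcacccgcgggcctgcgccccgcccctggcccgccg
Srxn1: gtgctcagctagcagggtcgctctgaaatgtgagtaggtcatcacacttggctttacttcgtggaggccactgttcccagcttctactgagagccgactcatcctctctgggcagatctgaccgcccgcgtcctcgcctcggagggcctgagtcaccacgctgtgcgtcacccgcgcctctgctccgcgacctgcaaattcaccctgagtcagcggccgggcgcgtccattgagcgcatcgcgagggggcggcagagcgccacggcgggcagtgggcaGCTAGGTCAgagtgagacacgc
Prdx1: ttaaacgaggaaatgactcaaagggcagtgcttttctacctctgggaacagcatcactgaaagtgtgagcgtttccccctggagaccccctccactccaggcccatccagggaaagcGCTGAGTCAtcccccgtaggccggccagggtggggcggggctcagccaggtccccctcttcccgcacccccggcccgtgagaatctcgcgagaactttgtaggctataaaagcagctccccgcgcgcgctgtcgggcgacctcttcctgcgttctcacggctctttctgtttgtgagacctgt
Txnrd1: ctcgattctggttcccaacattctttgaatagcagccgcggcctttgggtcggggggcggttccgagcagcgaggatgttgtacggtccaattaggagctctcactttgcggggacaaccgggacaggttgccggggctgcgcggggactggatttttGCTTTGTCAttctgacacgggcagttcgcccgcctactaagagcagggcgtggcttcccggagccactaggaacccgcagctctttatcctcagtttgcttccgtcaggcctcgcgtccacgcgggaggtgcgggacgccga
G6pdx: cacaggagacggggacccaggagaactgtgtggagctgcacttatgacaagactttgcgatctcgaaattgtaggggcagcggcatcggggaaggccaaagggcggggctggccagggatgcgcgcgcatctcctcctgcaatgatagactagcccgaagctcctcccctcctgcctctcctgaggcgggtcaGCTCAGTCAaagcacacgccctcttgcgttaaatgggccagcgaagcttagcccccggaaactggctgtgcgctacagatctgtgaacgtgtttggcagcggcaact
Gsta3: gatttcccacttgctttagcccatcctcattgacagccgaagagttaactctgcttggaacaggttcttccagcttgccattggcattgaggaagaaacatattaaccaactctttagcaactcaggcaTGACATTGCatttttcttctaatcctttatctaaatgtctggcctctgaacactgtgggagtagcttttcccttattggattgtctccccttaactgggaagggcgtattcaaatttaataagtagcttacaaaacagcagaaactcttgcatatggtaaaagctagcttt
Gclm, Srxn1, Prdx1, Txnrd1 and G6pdx carry the core on the strand opposite to the gene, so that it reads in reverse complement here, and Gsta3 carries it on the strand of the gene.

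Of the genes of iron handling, Slc40a1 and Fth1 rose and Tfrc fell. Slc40a1, ferroportin, the only known iron exporter of mammalian cells, ran from 10.2 to 35.3 CPM in the controls (median 18.6) and from 28.7 to 73.6 CPM with Hb (median 37.3). The groups overlapped, and control replicate 4 was the highest E1 control for this gene. Within E1 the log2 fold change was 1.04 (SE 0.21) and within E2 1.08 (SE 0.37), although E2 controls were above all E1 controls but replicate 4, with controls at 28.3 to 33.9 CPM and Hb libraries at 61.3 to 73.6 CPM.

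Fth1, the ferritin heavy chain that oxidizes and stores iron, was among the most abundant of the called genes. It ran from 3183 to 5558 CPM in the controls (median 4055) and from 4526 to 8726 CPM with Hb (median 6508), and 7 of 10 Hb libraries exceeded all controls. Its log2 fold change was 0.61 (SE 0.11, adjusted p = 0.00218). Tfrc, the transferrin receptor, moved the other way, from a median of 115 CPM (range 66.6 to 129) to 66.5 CPM (range 38.3 to 85.7). Both groups were lower in E2, and within E1 the controls were at 100.2 to 129 CPM and Hb libraries at 61.6 to 85.7 CPM, with no overlap. Tfrc fell by 0.74 on the log2 scale (SE 0.14, adjusted p = 0.00215), and with the experiment term the adjusted p was 7.39e-07. Ncoa4, the receptor that carries ferritin to lysosomes, had groups without overlap, 60.5 to 69.7 CPM against 72.3 to 85.7 CPM, but its log2 fold change of 0.20 did not pass (adjusted p = 0.129). Of 21 genes of iron handling, 2 rose and 1 fell, and the median was 0.013. With the experiment term 3 rose, Ncoa4 being the third (adjusted p = 0.0401), and 1 fell.

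**Figure D2:**
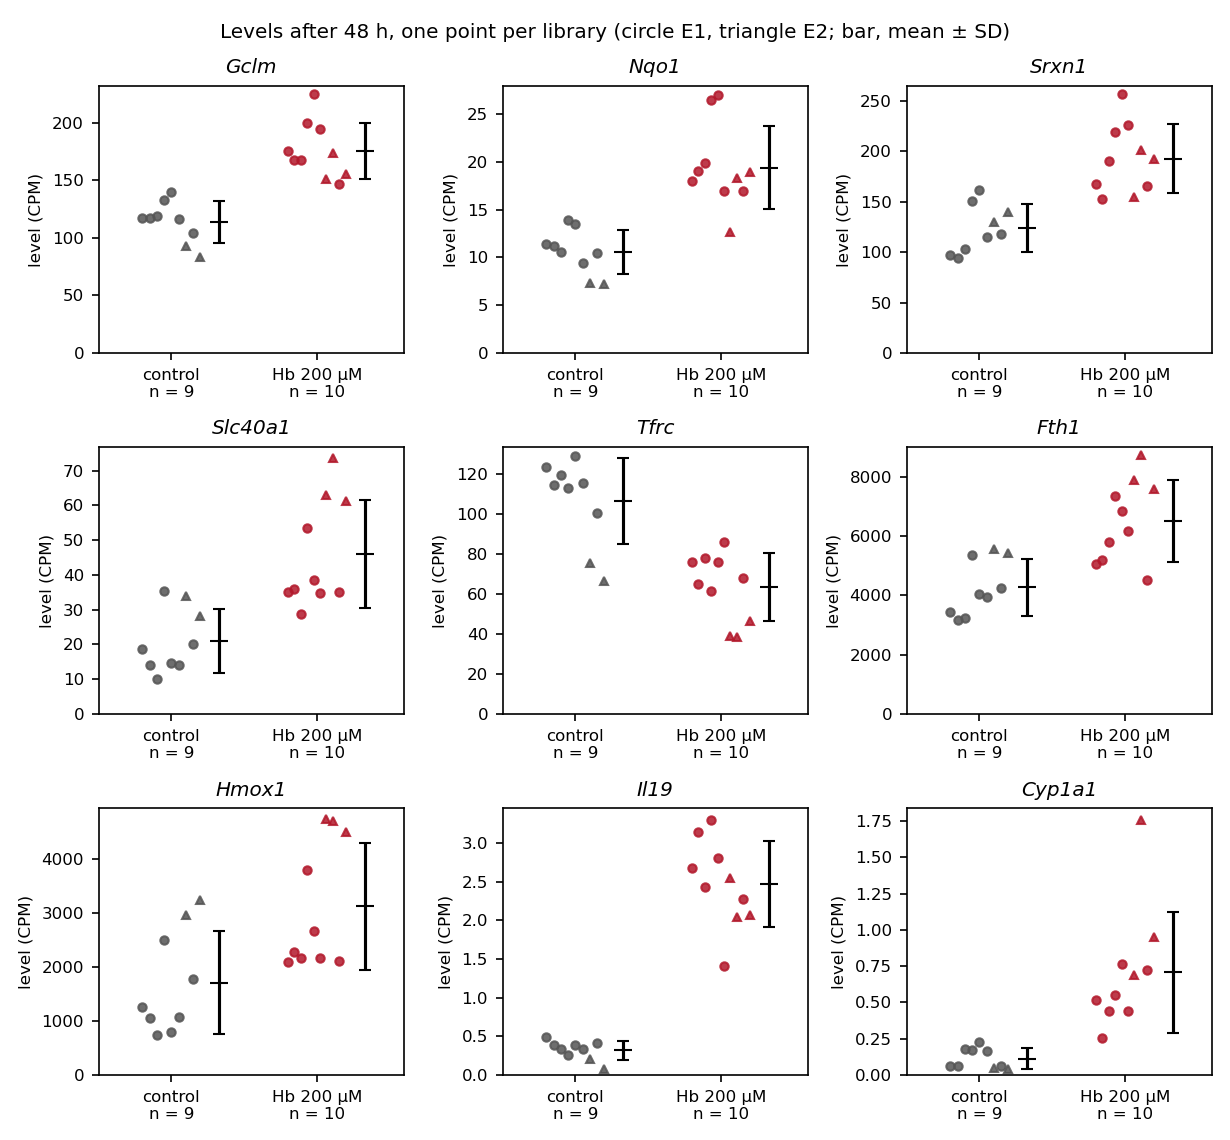
Level in CPM of 9 genes in each of the 19 libraries (circles E1, triangles E2), with the mean and SD of each group beside the points. Gclm, Il19 and Cyp1a1 show no overlap between control and Hb libraries, and the E2 libraries are the lowest of both groups for Tfrc and the highest of both for Hmox1.

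Of the genes of heme breakdown and transport, Slc48a1 passed and Hmox1 did not. Hmox1, heme oxygenase, which opens the heme ring, ran from 735 to 3233 CPM in the controls (median 1253) and from 2085 to 4745 CPM with Hb (median 2471). The groups overlapped in 3 controls, the 2 of E2 at 2967 and 3233 CPM and replicate 4, the highest of E1 at 2506 CPM. Its log2 fold change of 0.90 (SE 0.23, 95% interval 0.44 to 1.36) did not pass (adjusted p = 0.106). It passed with the experiment term (0.84, adjusted p = 0.00466), in the paired comparison (adjusted p = 0.0189) and in DESeq2 (adjusted p = 0.0291), and Hmox1 was higher in 7 of 7 pairs.

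Blvrb, a biliverdin reductase, gave 0.47 (adjusted p = 0.106) and passed with the experiment term (adjusted p = 0.0322). Slc48a1, which moves heme out of endolysosomes, was the only one of 11 genes of heme breakdown and transport to pass, and Hmox1 and Blvrb made 3 with the experiment term. Its levels were 209 to 335 CPM in the controls and 279.9 to 417 CPM with Hb, and the rise between paired libraries ran from 0.26 to 0.53 on the log2 scale. None of 8 genes of heme synthesis passed in edgeR, which at 0.228% over all genes is no result about so short a list. Alas1, the first enzyme of heme synthesis, is known to be repressed by heme. It gave -0.24 at 48 h (adjusted p = 0.307), with 1 of 7 pairs higher, and fell by 0.38 at 24 h (adjusted p = 0.00243).

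The receptors Cd163 and Lrp1, which take up Hb or heme complexes, did not pass. Cd163, the macrophage receptor for Hb with haptoglobin, ran from 1.54 to 7.57 CPM in the controls and from 2.00 to 8.61 CPM with Hb. Its log2 fold change was 0.31 (95% interval -0.21 to 0.82, adjusted p = 0.999). Lrp1, the receptor for heme with hemopexin, had a median of 1694 CPM in the controls and 1613 CPM with Hb, with a log2 fold change of 0.027 (95% interval -0.22 to 0.27, adjusted p = 0.999), and its sign turned when control replicate 3, 5 or 6 was left out. Of 8 scavenging genes none passed, which at 0.228% over all genes is no result about so short a list. With the experiment term Marco, a macrophage scavenger receptor, passed (0.93, adjusted p = 0.0257), as it did in the paired comparison (adjusted p = 0.00568).

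Several targets of the aryl hydrocarbon receptor, a ligand-activated factor that induces drug-metabolizing enzymes, rose. Cyp1a1, its classical target, was close to its detection limit in the controls, with 0.0398 to 0.226 CPM and 1 to 11 raw counts per library. With Hb it ran from 0.257 to 1.76 CPM, or 13 to 80 raw counts. All 10 Hb libraries were above all 9 controls. Its log2 fold change was 2.55 (SE 0.36, adjusted p = 1.19e-05), with 1.94 within E1 and 4.59 within E2. Cyp1b1, a related enzyme at much higher counts, rose from a median of 245 CPM (range 150.1 to 278) to 409 CPM (range 274 to 515). It rose by 0.76 on the log2 scale (SE 0.14, adjusted p = 0.00181), and 9 of 10 Hb libraries lay above the controls. Ahrr, the repressor that the receptor induces against itself, ran from 1.90 to 3.97 CPM in the controls and 3.23 to 5.89 CPM with Hb (log2 fold change 0.65, SE 0.12, adjusted p = 0.00138).

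Tiparp, another target, had a value of 0.20 and passed with the experiment term (adjusted p = 0.0481). Of the 7 genes on this list that were tested, 4 rose, with Nqo1 as the fourth, which the list shares with the NRF2 targets. All 7 were positive and the median was 0.65. Cyp1a2 was not tested, since its counts summed to 0 in the controls and to 4 with Hb. The core of the xenobiotic response element was searched as TNGCGTG on both strands after these results were known. It was in 5.07% of all 32851 windows and in 4 of the 33 windows of the raised genes (12.1%). By gene, it was in the windows of 4 of the 23 raised genes (17.4%), against 5.84% of all genes. The window of Ahrr lies at chr13:74292282-74292581 (minus strand) and is shown with the core in capitals, as the gene of this list with a match.
Ahrr: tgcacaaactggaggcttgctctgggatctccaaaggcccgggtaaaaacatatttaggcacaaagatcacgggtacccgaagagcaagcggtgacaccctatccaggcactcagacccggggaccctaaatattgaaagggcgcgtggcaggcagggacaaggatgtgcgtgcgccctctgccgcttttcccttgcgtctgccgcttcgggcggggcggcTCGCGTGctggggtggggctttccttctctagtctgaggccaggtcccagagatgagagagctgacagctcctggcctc

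Il19, Ikbkg, Clec4n, Ereg and Pdgfa, on none of the fixed lists, were also called and are described together by their known roles. Il19, a cytokine of the interleukin-10 family, had the smallest p of all genes. It ran from 0.0795 to 0.490 CPM in the controls (median 0.335), or 2 to 24 raw counts, and from 1.40 to 3.29 CPM with Hb (median 2.49), or 50 to 159 raw counts. The groups did not overlap in E1 or in E2. Its log2 fold change was 2.90 (SE 0.30, adjusted p = 1.04e-08). Ikbkg, the regulatory subunit of the IκB kinase complex, did not overlap either, with 55.4 to 62.2 CPM in the controls and 65.2 to 75.2 CPM with Hb. Its log2 fold change was 0.31 (SE 0.035, adjusted p = 4.74e-08). Ikbkg shares exon sequence with G6pdx on the opposite strand. Without a stated strand setting, reads from the shared part may have been counted for either gene, and their share was not measured. Clec4n, the C-type lectin Dectin-2 of myeloid cells, rose from a median of 6.69 CPM (range 4.83 to 12.1) to 17.02 CPM (range 11.1 to 25.2), a log2 fold change of 1.15 (SE 0.17, adjusted p = 4.12e-05).

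Ereg, epiregulin, a ligand of the epidermal growth factor receptor, ran from 0.569 to 2.89 CPM in the controls and from 3.29 to 5.15 CPM with Hb, without overlap. It rose by 0.94 (SE 0.21, adjusted p = 0.0249), but the adjusted p was 0.204 in the paired comparison, and the call was lost when Hb replicate 4 or 10 or control replicate 9 was left out. Pdgfa, a platelet-derived growth factor chain, rose by 0.32 (SE 0.062, adjusted p = 0.00380). Map2k3, a kinase upstream of p38, rose by 0.19 (SE 0.043, adjusted p = 0.0249), 9 of 10 Hb libraries were above the controls, and the adjusted p in the paired comparison was 0.0567. The remaining raised genes were Slc36a2, an amino acid transporter (1.13), Gsap, the gamma-secretase activating protein (0.30), Hgsnat, a lysosomal acetyltransferase of heparan sulfate breakdown (0.18), and Lrrfip2 (0.16), with adjusted p from 0.0347 to 0.0388. In the paired comparison Hgsnat passed, and Slc36a2, Gsap and Lrrfip2 did not (adjusted p = 0.0567, 0.0536 and 0.197).

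On the list of inflammatory activation, 25 genes were tested, Il6, Tnf, Ccl2 and Nos2 among them. None passed in edgeR, which at a share of 0.228% over all genes is no result about the list, and 18 were positive with a median of 0.16. With the experiment term 2 passed. In the paired comparison 1 passed, Ptgs2, the inducible cyclooxygenase. Gpr84, a myeloid receptor raised in activated microglia, ran from 1.41 to 4.74 CPM in the controls and 3.19 to 8.14 CPM with Hb, with a log2 fold change of 0.91 (adjusted p = 0.0888). Tnfrsf1a, the receptor for tumor necrosis factor, gave 0.16 (adjusted p = 0.0979). Both passed with the experiment term (adjusted p = 0.0179 and 0.0203), and Clec4d, a lectin related to Clec4n, did so too (0.85, adjusted p = 0.0172). Il1b was not tested, with at most 2 counts in any library. Of 19 interferon-stimulated genes and 20 genes of disease-associated microglia none passed, which at the same share is no result about these lists. Their medians were -0.013 and 0.076, and the paired comparison called 1 of the latter list, Itgax.

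Beside Tfrc, 3 genes fell. Pi15, a secreted peptidase inhibitor, ran from 4.29 to 10.8 CPM in the controls (median 7.89) and from 2.74 to 8.33 CPM with Hb (median 4.13). A single Hb library lay above the median of the controls, and 7 of 10 were below every control. Pi15 fell by 0.83 (SE 0.16, adjusted p = 0.00374), and the adjusted p in the paired comparison was 0.0661. Epb41l4a, a gene of the band 4.1 family, fell by 0.39 (adjusted p = 0.0123). As3mt, an arsenite methyltransferase, fell by 0.30 (adjusted p = 0.0388), with an adjusted p of 0.0893 in the paired comparison. With the experiment term 3 further genes fell. Mrgprf, an orphan receptor gene, gave -0.69 (adjusted p = 0.00806). Plscr4, a phospholipid scramblase, ran from 15.98 to 22.8 CPM in the controls and from 11.2 to 17.3 CPM with Hb and gave -0.32 (adjusted p = 0.0272). Usp11, a ubiquitin-specific protease, gave -0.27 (adjusted p = 0.0418).

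Lists of other stress programs were read in the same way, and at a share of 0.228% over all genes a count of 0 on such short lists is no result about them. In edgeR none of 15 genes of the unfolded protein response passed, none of 14 heat shock chaperones, none of 5 metallothionein and zinc genes, none of 18 p53 targets, none of 15 apoptosis genes and none of 14 HIF targets. Their medians lay between -0.13 for the HIF targets and 0.069 for the p53 targets. Pdia4, Dnaja1 and Mt2 led 3 of these lists by p, and each had an adjusted p of 0.999 with values of -0.087, -0.056 and -0.12. Among 27 ATF4 targets none passed, with a median of -0.046, and the experiment term called 3, Slc7a11, Slc3a2 and Cebpb. Of the ferroptosis regulators, 14 were tested, 1 fell, which was Tfrc, and none rose. With the experiment term Slc7a11 and Ncoa4 rose as well, and in the paired comparison Slc7a11 and Ptgs2 did. All 23 genes of cholesterol synthesis had positive values between 0.024 and 0.18, and none passed, while Dhcr7, the last reductase of the pathway, passed in the paired comparison.

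**Figure D3:**
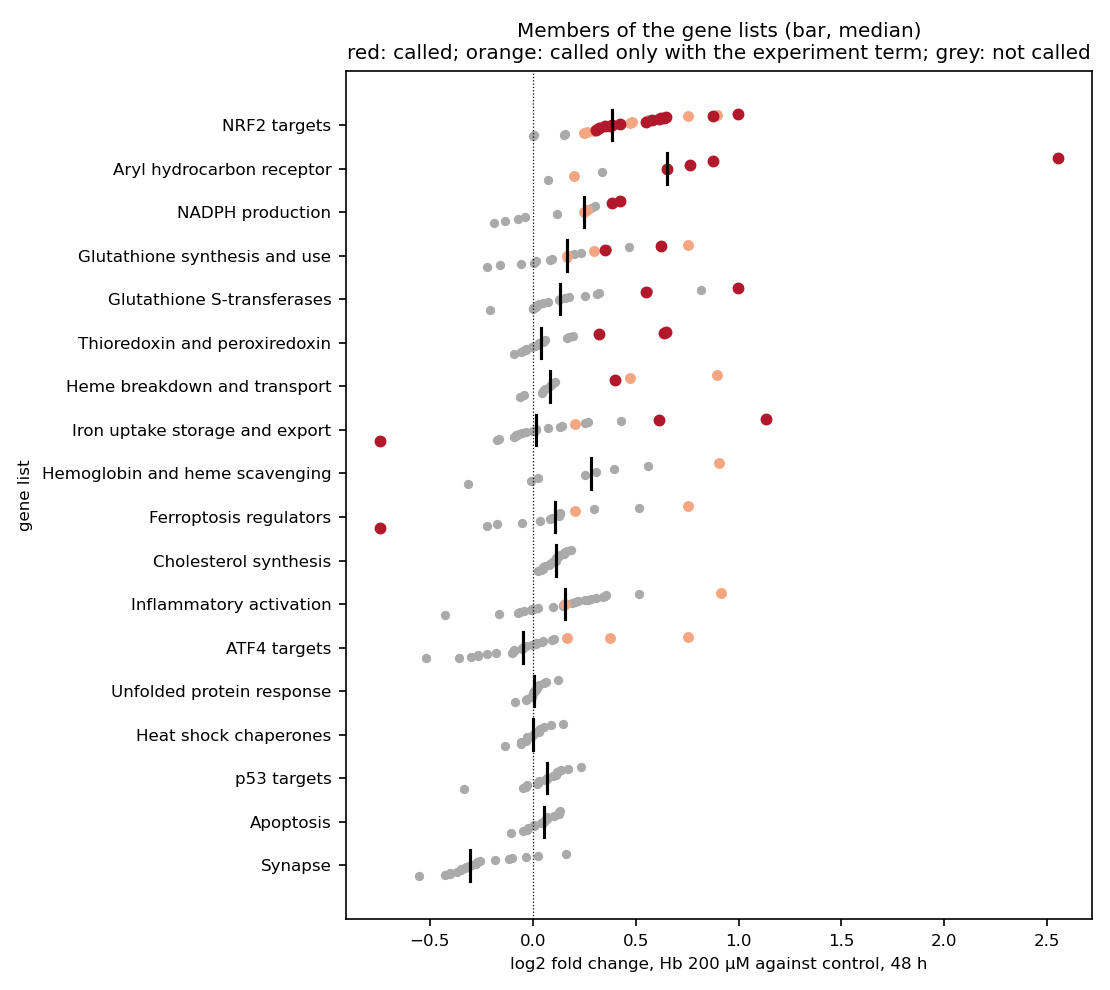
Log2 fold change (Hb 200 μM against control, 48 h) of every tested member of 18 gene lists, with a bar at each list's median. Red points passed in edgeR and orange points did so once the experiment term was added, and the medians run from 0.65 for the aryl hydrocarbon receptor list and 0.39 for the NRF2 targets to -0.30 for the synapse list.

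Markers of cell types were checked beside these changes, because bulk RNA cannot tell fewer cells of a type from less RNA per cell. Neurons, astrocytes, oligodendrocytes and microglia were all detected by their markers, and no marker gene on any of the lists passed in edgeR, whether for neurons (11 genes, median -0.23), microglia (11, 0.013), astrocytes (10, -0.10) or oligodendrocytes (10, 0.078). At a share of 0.228% over all genes, a count of 0 on lists of this length does not show equal composition. The neuronal median was 0.10 in the paired comparison, with 9 markers higher and 2 lower, against 2 higher and 9 lower over all libraries. Paired medians were 0.18 for microglia, -0.099 for astrocytes and 0.048 for oligodendrocytes. The 11 neuronal markers summed to 576 to 1261 CPM in the controls and 597 to 1036 CPM with Hb. Microglial markers summed to 863 to 5848 CPM in the controls and 1310 to 4778 CPM with Hb. Microglial levels thus varied several-fold between libraries of 1 group, and control replicate 4, high for Slc40a1 and Hmox1, also had the highest microglial sum of the E1 controls at 3517 CPM. Choroid plexus and ependymal markers varied from 134 to 541 CPM in the controls and from 112 to 1125 CPM with Hb. In the paired comparison 1 marker of border macrophages, Pf4, was higher and 1 of mural cells, Acta2, was lower. Markers of brain regions varied too, and the hypothalamic peptide genes Hcrt and Pmch ran from 0 to 141 and from 0 to 561 raw counts over the 19 libraries. The part of these differences between libraries in the calls was not tested. Of 6 granulocyte and monocyte markers, S100a8 and Ccr2 were tested. These 2 summed to 0.858 to 2.59 CPM in the controls and 1.37 to 2.73 CPM with Hb. Neither passed (0.50 and -0.048), and 1 of the list passed at 400 μM. S100a9, Retnlg and Ly6c2 had at most 1 count per library.

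**Figure D4:**
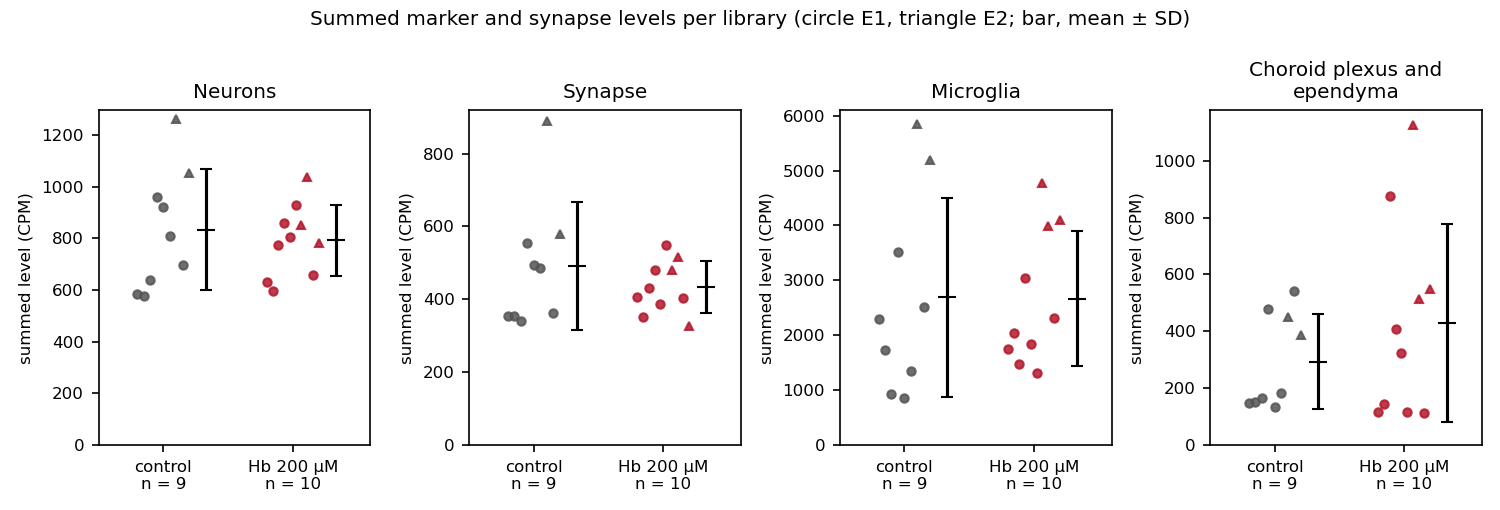
Summed level (CPM) of neuronal, synaptic, microglial, and choroid plexus and ependymal genes in each library (circles E1, triangles E2), with the mean and SD of each group. Control and Hb libraries overlap in all 4 panels, and the E2 controls have the highest neuronal sums, 1052 and 1261 CPM.

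Synaptic genes differed between the experiments. Over all 19 libraries the 20 synaptic genes had a median of -0.30, 18 were negative and none passed. At a share of 0.228% over all genes, that count of 0 is no result about the list. Gria1, a subunit of AMPA-type glutamate receptors, came nearest, with -0.43 (adjusted p = 0.713). The median of the list was -0.24 with the experiment term, and -0.064 in the paired comparison, where 14 genes were lower and 6 higher. Within E1 alone, with 7 libraries in each group, the median of the list was 0.050 and that of the neuronal markers 0.12, and no gene of either passed. In E2 alone, with 2 controls and 3 Hb libraries, 503 of 15914 genes passed, 88 higher (0.553%) and 415 lower (2.61%). There, 14 of 20 synaptic genes and 8 of 11 neuronal markers were lower, with medians of -1.23 and -1.10, together with 5 of 11 microglial markers. The 2 E2 controls had synaptic sums of 580.4 and 890.0 CPM, against 340.5 to 556 CPM in the E1 controls and 327 to 515 CPM in the E2 Hb libraries. The lower values of E2 rest on these 2 controls, without the E2 control of conflicting labels.

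Of the 37 called genes, 19 (51.4%) differed between E2 and E1 irrespective of Hb, against 61.5% of all genes. A test of the difference in the Hb effect between the experiments called 2 of 15629 genes (0.0128%). Ereg rose by 0.65 in E1 (SE 0.10) and by 2.83 in E2 (SE 0.21), an adjusted p of 0.000708 for the difference. Its E2 controls were at 0.569 to 0.676 CPM, below E1 controls at 2.35 to 2.89 CPM, whereas Hb libraries overlapped at 3.75 to 5.15 and 3.29 to 4.90 CPM. Tmem179, a membrane protein gene, rose in E1, from 23.9 to 29.96 CPM up to 35.3 to 51.1 CPM, and was lower in E2, with 22.1 to 26.5 CPM in the controls and 16.2 to 19.7 CPM with Hb (adjusted p = 0.386 within E2 and 0.0244 for the difference).

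**Figure D5:**
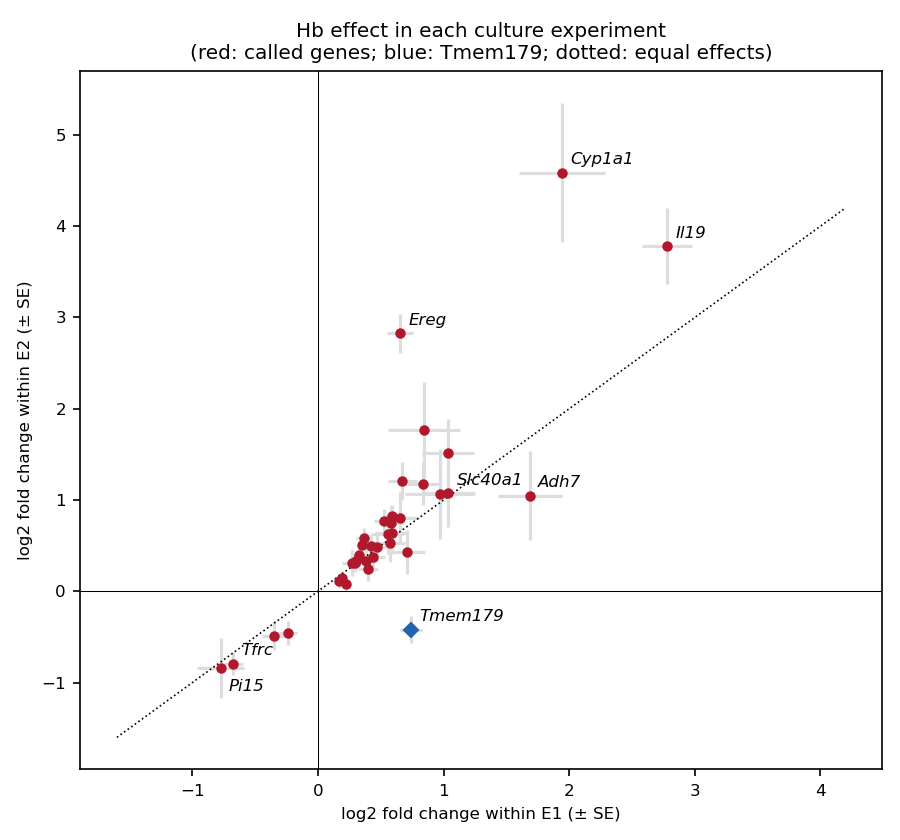
Log2 fold change with Hb within E1 (horizontal) and within E2 (vertical), with standard errors, for the 37 called genes (red) and Tmem179 (blue diamond). All red points lie in the quadrants of equal sign, and Ereg and Cyp1a1 lie farthest above the dotted line of equal effects.

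Batch 2 alone, with 7 controls and 8 Hb libraries, called 6 genes, all higher and all among the 37. Batch 3 alone, with 2 libraries in each group, called none in edgeR, with 198 genes at an unadjusted p under 0.05. All 37 genes had the same direction in each batch as over both, which the choice of these genes on the same libraries favors. The Hb effect was also compared between libraries with F and M in their name. No gene passed in edgeR, and 205 of 15629 had an unadjusted p under 0.05.

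At 24 h, in 20 libraries with controls of their own, 19 of 16221 genes passed (0.117%), of which 15 were also called at 48 h. That is 78.9% of the 24 h calls and 40.5% of the 48 h calls. All 37 genes had the same direction at 24 h. Il19 was already separated at 24 h, with 0.172 to 0.709 CPM in the controls and 1.42 to 4.48 CPM with Hb (log2 fold change 2.47, adjusted p = 2.10e-07). Gclm and Srxn1 were close to their later values, at 0.55 and 0.63. On the lists, 9 of the NRF2 targets and 2 of the aryl hydrocarbon receptor targets had passed by 24 h. Osgin1 and Pi15 had larger changes at 24 h, 0.77 and -1.09 (adjusted p = 0.000260 and 4.41e-05).

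Fth1 and several enzymes had smaller values at 24 h. Fth1 gave 0.24 at 24 h (SE 0.11), against 0.61 at 48 h, and the difference of 0.37 (SE 0.16) had an unadjusted p of 0.0247. Prdx1 gave 0.32 and Gsta3 0.39, and neither passed. Gpr84 gave -0.050 at 24 h, and its difference between the times was 0.97 (SE 0.32, unadjusted p = 0.00452). Over all genes the test of the difference between 48 h and 24 h called none in edgeR, with 135 at an unadjusted p under 0.05, and none in DESeq2, with 241. None of these differences in time therefore passed after adjustment.

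The 10 libraries of 400 μM Hb at 48 h were tested against the same 48 h controls, and 71 of 16363 genes passed (0.434%). In the same fit 39 genes passed at 200 μM (0.238%). All 37 genes had the same direction at 400 μM and the doses share their controls. Of the NRF2 targets 17 passed at 400 μM, and 4 of the aryl hydrocarbon receptor targets did. Side by side, Gclm gave 0.63 at 200 μM and 0.73 at 400 μM, Nqo1 0.88 and 1.02, Slc40a1 1.13 and 1.23, and Tfrc -0.74 and -0.89. Hmox1 gave 0.88 and 0.91. The direct comparison of 400 with 200 μM called no gene in edgeR, with 158 at an unadjusted p under 0.05. DESeq2, run without the filter on low counts over 22826 genes, called 1, with 262 at an unadjusted p under 0.05. The call was Krt2, a keratin gene, with an extreme log2 fold change of 18.4 (SE 3.67). For Gclm the difference between the doses was 0.10 (SE 0.077), for Ahrr 0.24 (SE 0.12, unadjusted p = 0.0542) and for Epb41l4a -0.18 (SE 0.089, unadjusted p = 0.0492), the only one of the 37 under 0.05 without adjustment.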

How the data were processed

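Bulk mRNA was sequenced from slice cultures, and the authors deposited raw read counts per gene for each library, made with featureCounts on GRCm39 per the submitters' processing notes. The aligner, annotation release and strand setting are not given in the sources used here. RNA was extracted with a Lexogen SPLIT kit and libraries were prepared with a TruSeq mRNA kit. Groups came from the treatment labels, and 21 of 188 libraries without a group were not analysed here, among them an E2 control labelled 24 h whose library name reads 48 h. The members and gene lists were chosen with earlier results of these data known.

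The counts of 25528 genes (25424 named by symbol) in 55 libraries (control, Hb and Hb with haptoglobin at 24 and 48 h, batches 2 and 3) were fitted together in edgeR 4.0.16 (R 4.3.3), with 6 group coefficients and a batch term. Normalisation was by TMM and genes were kept by filterByExpr (smallest count 10, smallest total 15). Quasi-likelihood F tests were adjusted by Benjamini-Hochberg with a threshold of 0.05, and each standard error was derived from the fold change and its F statistic. Levels are CPM on TMM-scaled library sizes. The 400 μM comparison used 75 libraries, and differences between experiments or sexes used the 19 libraries. On simulated counts 67% of 100 genes changed by 0.5 and 86% of 100 changed by 1 (log2) were called. The simulated libraries shared 1 mean profile without batch or experiment differences, so that these shares need not hold for the real libraries. Median totals were 4.62e+07 in the controls and 4.63e+07 with Hb, and the smallest were 2.65e+07 and 2.53e+07. A level of 1 CPM thus stands for fewer counts in the smaller libraries. Counting error weighs most on genes near or below that level, and its size was not measured.

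The alternatives were an experiment term, a sex term, other sets of libraries, each batch and experiment alone, DESeq2 1.42.0, RLE scaling, other count filters, no batch term, a block and leaving out each library. Libraries with the same code after the experiment in their names form 7 pairs across the groups. The pair with code F1 in E1 holds 2 controls, replicates 2 and 8, and Hb replicate 2. Deviations from the group means correlated in every pair (r from 0.22 to 0.59, median 0.47), so that pairing is used for the paired comparison. However, in E1 alone r passed 0.1 in 4 of 6 pairs, and over the 19 libraries 2 of 7 pairs correlated best with their own partner. Genes named are those the study names, every gene called at 48 h, the leading members of each list and those called with the experiment term, those called in a test of a difference, and the 10 raised and 10 lowered most with the experiment term alone (mean of at least 1 CPM). Dnmt3l, Acss2 and Psmd11 entered the check for outlying libraries as calls of the experiment term. Figures were drawn with matplotlib 3.10.9.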

Additional observations from a re-analysis of the deposited data

Results flagged for a closer look

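In the 75 genes checked for outlying libraries, 150 sets of values (a gene in a group) were examined, and in 9 of them (6%) 1 library stood far from the others by Dixon's test, where chance gives about 5%. Il19 in control replicate 9 was at 0.0795 CPM, with the next control at 0.213 CPM, and As3mt in the same library was at 25.2 CPM, above the next at 21.5 CPM. G6pdx in Hb replicate 7 was at 172 CPM, with the next Hb library at 211 CPM, and Acss2 in that library was at 37.7 CPM against 43.7 CPM. Pi15 in Hb replicate 2 was at 8.33 CPM, above the next at 4.82 CPM. Plscr4 and Dnmt3l in Hb replicate 9 were at 11.2 and 0.190 CPM, below 13.95 and 0.461 CPM. Ncoa4 and Psmd11 in control replicate 7 were at 60.5 and 87.97 CPM, below 64.9 and 93.9 CPM. Each set held E1 and E2 libraries together. Control replicates 7 and 9 and Hb replicate 7 are of E2, and Hb replicates 2 and 9 are of E1.

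The Hb effect differed between the experiments for 2 genes by a test of the difference. For Ereg the effect in E2 minus that in E1 was 2.17 on the log2 scale, and for Tmem179 it was -1.16. Both rest on 2 controls and 3 Hb libraries of E2.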

How the results depend on the processing

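All 37 called genes passed also with RLE scaling, the experiment term, the experiment and sex terms and DESeq2, and no called gene turned its sign under any alternative in 552 values, of which 166 lost the call. Against 37 calls at 48 h, the experiment term gave 73, sex and experiment terms 78, DESeq2 63, the 19 libraries alone 20 (16 of the 37) and these with the experiment term 79. With no filter on low counts 27 passed, all among the 37, and with at least 10 counts in every library 36 passed, 34 of them among the 37. Batch 2 alone gave 6, batch 3 alone 0, E1 alone 20, E2 alone 503, and a change of at least 1.5-fold 18. The count ran from 26 to 48 when 1 library was left out. With the replicate block by library code, the pairing of the report, it was 83, and 7 of the 37 calls were lost, as given beside those genes. The block by the replicate number of the titles gave 26, 19 of them among the 37, with r between -0.42 and 0.74 (median 0.51) and over 0.1 in 8 of 9 pairs. At 24 h, 19 calls became 31 with the experiment term and 33 with sex and experiment terms. The 0 calls between doses became 1 in DESeq2. Lrp1 turned negative in batch 3 alone (-0.088) and in E2 alone (-0.16), and ran from -0.026 to 0.081 when 1 library was left out. Dnmt3l turned to -0.17 in batch 3 alone. The causes were not tested. Genes under 1 CPM, Il19, Cyp1a1 and Adh7 among them in the controls, rest on few counts.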
